A study of Homo sapiens with 6 samples.

Results

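The RAP and RAS small GTPases examined here are 9 genes, RAP1A, RAP1B, RAP2A, RAP2B, RAP2C, NRAS, HRAS, RRAS and RRAS2, out of the 15894 genes with a probe set of their own in the annotated table, which leaves out dim probe sets. They were taken as a gene family by symbol from that table of the authors, in which 21 of the 37458 probe sets that name 1 gene belong to them. The family was chosen on the shCIRC against shEV differences of the RAP1A probe sets, which disagree, so every RAP1A value is given as a description without a test. All 9 genes had at least 1 probe set in the annotated table, and 8 had several. For each gene the main probe set is the one with the highest mean over the 6 arrays.

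Gene expression was measured in the human colon carcinoma line RKO, in 3 samples that carried a short hairpin RNA against the circular RNA hsa_circ_0064559 (shCIRC) and 3 samples that carried the control vector with a nonsense hairpin (shEV). Per the methods, both vectors were brought in by lipid transfection and the cells were kept in culture to obtain stable transfectants, while another passage of them speaks of lentiviral transduction. Each sample was hybridized to 1 Affymetrix PrimeView array, which reads each mRNA with 1 or more sets of short probes. A single hairpin and 1 control vector in 1 cell line were compared, so loss of the circular RNA cannot be told apart from other effects of the hairpin. The arrays gave no reading of the circular RNA that could check the knockdown. The methods state that its efficiency was checked by quantitative PCR, which is not part of these data. The labels give the groups different sample codes as well as different hairpins. The hairpin sequences are shown as the labelled difference in treatment, and they are printed in lower case throughout.
shCIRC: tttattatagcctgccacagc
shEV: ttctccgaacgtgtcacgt

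RAS and RAP proteins are molecular switches that are active when bound to GTP and inactive when bound to GDP. Exchange factors load them with GTP, and GTPase-activating proteins return them to the GDP-bound state. RAS proteins pass growth signals from receptors to the RAF and PI3 kinases, while RAP1 and RAP2 are best known for the control of integrin adhesion, cell junctions and the cytoskeleton. In colorectal cancer, activation of the RAS pathway is a common driver of growth.

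The values are log2 signals that the authors had normalized between arrays by quantile normalization, and the array medians lay between 6.82 and 6.85. Pearson r between arrays, taken over probe sets, was 0.987 to 0.988 between the groups and 0.998 to 0.999 inside them. The 3′ minus 5′ signal of GAPDH, which is sensitive to RNA degradation, was -0.30 ± 0.02 in shCIRC and -0.16 ± 0.02 in shEV (SD, n = 3 each). That of ACTB was -0.01 ± 0.03 in shCIRC and 0.13 ± 0.02 in shEV (SD, n = 3 each). Their part in the results below was not tested. Of 8 markers of colon epithelium, 5 were measured. The log2 signals of KRT18 were 10.91 to 10.99 in shCIRC and 11.18 to 11.28 in shEV, and those of CDX2 were 8.12 to 8.20 in shCIRC and 8.10 to 8.25 in shEV. KRT19 was dim, with 5.93 to 5.97 in shCIRC and 5.94 to 6.07 in shEV. It was brighter than only 23.8% to 25.7% of the probe sets of 1 gene. CDH1, KRT20 and VIL1 were not analysed here. KRT8 rose (log2 difference 0.53), EPCAM (-0.46) and KRT18 (-0.30) fell, and the log2 signals of the 5 summed to 41.3 to 41.5 in shCIRC and 41.5 to 41.7 in shEV. None of the 3 fibroblast and 4 endothelial markers measured passed the test described below, and their sums were 16.3 to 16.9 and 22.6 to 23.0 in shCIRC and 16.6 to 16.8 and 22.7 to 23.0 in shEV. Of the leukocyte markers, CD3E had 5.31 to 5.65 in shCIRC and 5.39 to 5.61 in shEV and did not pass. CD68, a lysosomal protein that is not restricted to leukocytes, fell, with 12.03 to 12.08 in shCIRC and 13.28 to 13.31 in shEV (log2 difference -1.23). PTPRC and CD14 were not analysed here. The part of these markers in the results below was not tested. Whether the replicates are separate cultures is not stated, so the p-values cover the spread between these samples alone, and it may be technical. The number of arrays limits the precision.

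RAP1A, which controls integrin activation and cell junctions, had 4 probe sets, and the main one gave the most different signals between the groups of any probe set on the array. On that probe set, 11762533_a_at, the log2 signals were 9.61, 9.62 and 9.64 in shCIRC cells, against 14.92, 14.88 and 14.92 in shEV cells. All 3 shCIRC arrays lay far below all 3 shEV arrays, with a log2 difference of -5.28 (standard error 0.03), a 38.9-fold lower signal. The highest signal of any probe set was 15.3, and whether saturation limited the signal of this one on the shEV arrays, and with it the fold, was not tested. The next largest difference among all 49395 probe sets was 2.54 on the log2 scale. On each shEV array 11 to 12 probe sets were brighter than 11762533_a_at, against 8784 to 8924 on each shCIRC array. The annotated table gives no genome position for 11762533_a_at, so whether it reads RAP1A is not settled by these data.

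**Figure D1:**
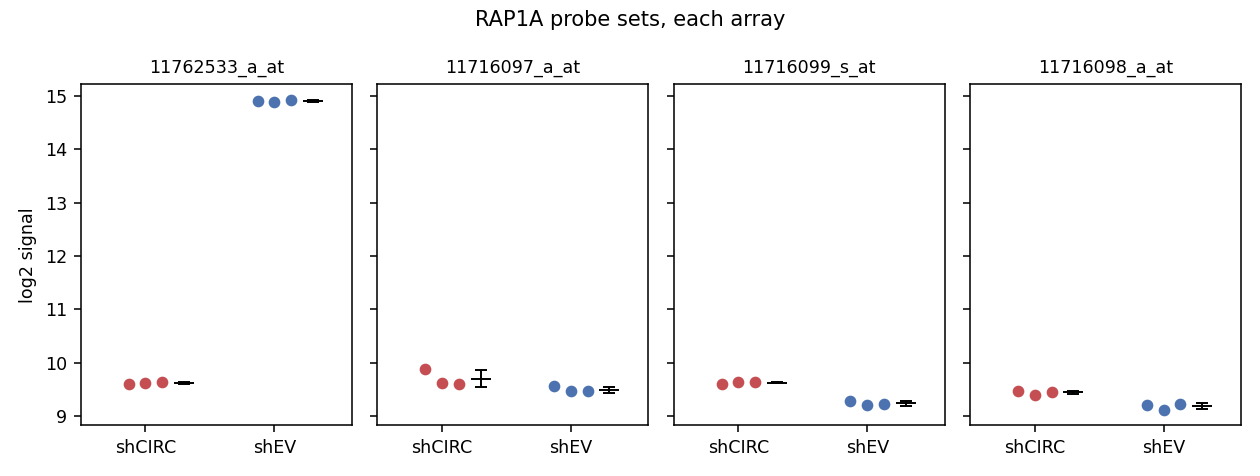
Log2 signal (y axis) of the 4 RAP1A probe sets on each array, shCIRC left and shEV right, with points for arrays and a bar for the mean ± SD (n = 3). Only 11762533_a_at is lower in shCIRC, near 9.6 against 14.9 in shEV, and the other 3 are slightly higher in shCIRC. Levels of different probe sets cannot be compared with each other.

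The other 3 RAP1A probe sets differed in the opposite direction. They share 1 position in the annotation, on the plus strand of chromosome 1 from 112162398 to 112256340. For 11716099_s_at the log2 signals were 9.61, 9.63 and 9.64 in shCIRC and 9.29, 9.20 and 9.23 in shEV, a log2 difference of 0.39 (standard error 0.04). For 11716098_a_at they were 9.48, 9.40 and 9.45 in shCIRC and 9.21, 9.12 and 9.22 in shEV, a log2 difference of 0.26 (standard error 0.04). The 11716097_a_at signals were 9.89, 9.61 and 9.61 in shCIRC and 9.56, 9.46 and 9.46 in shEV, a log2 difference of 0.21 (standard error 0.08), and shCIRC replicate 1 stood above the others. The groups did not overlap on any of these 3 probe sets, and every shCIRC array lay above every shEV array. Over all probe sets of 1 gene, 58.5% did not overlap between the groups, 29.8% with shCIRC above and 28.8% with shCIRC below. The sign of the RAP1A difference thus depends on the probe set that is read, and the mean over the 4 was -1.11 on the log2 scale.

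**Figure D2:**
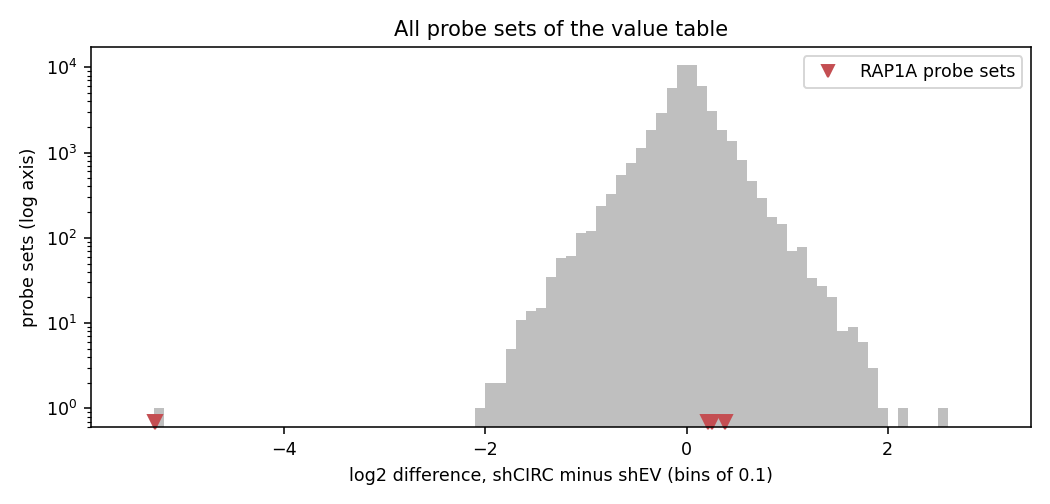
Number of probe sets (y axis, log scale) by log2 difference of shCIRC minus shEV (x axis, bins of 0.1) over all 49395 probe sets, with the 4 RAP1A probe sets as triangles. One RAP1A probe set lies alone at -5.28, and the other 3 lie between 0.21 and 0.39.

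Probe sets of other genes also disagreed. Of 9617 genes with several probe sets, 37.6% had log2 differences of both signs, and 6.05% had probe sets that passed the test in both directions. The median distance between the lowest and the highest probe set of a gene was 0.20 on the log2 scale. RAP1A had the widest distance, 5.67, and the next gene, the kinase MAPK9, had 3.02. Probe sets without a genome position were rare, with 54 of those that name 1 gene. The median size of their log2 difference was 0.08, against 0.15 over all probe sets of 1 gene, and after 11762533_a_at their largest was 1.24. Among genes brighter than the median, those whose main probe set followed the main RAP1A probe set most closely were YWHAH, MICB and CDCA7, with Pearson r of 0.9999 for YWHAH over the 6 arrays. As the arrays fall into 2 groups, this r describes mainly the step between them, and YWHAH and MICB had log2 differences of -0.79 and -1.39.

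The other 8 genes were tested in the fit over all 15894 genes, where 47.5% passed at an adjusted p under 0.05, with 22.8% higher and 24.7% lower in shCIRC. Of the 8 genes, 1 rose, 4 fell and 3 did not pass. RAP2C was the gene that rose, and RAP2B, NRAS, RRAS and RRAS2 fell. These 5 are 62.5% of 8 genes, beside the 47.5% of all genes. The groups did not overlap for these 5 genes, as for 56.0% of all genes (27.0% with shCIRC above and 29.0% with shCIRC below). The median log2 difference of the 8 was -0.14, and that of all genes was -0.0045. At the level of probe sets, 3 of the 17 of these genes rose, 8 fell and 6 did not pass. Over all probe sets of 1 gene 50.3% passed, with 25.6% higher and 24.6% lower.

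**Figure D3:**
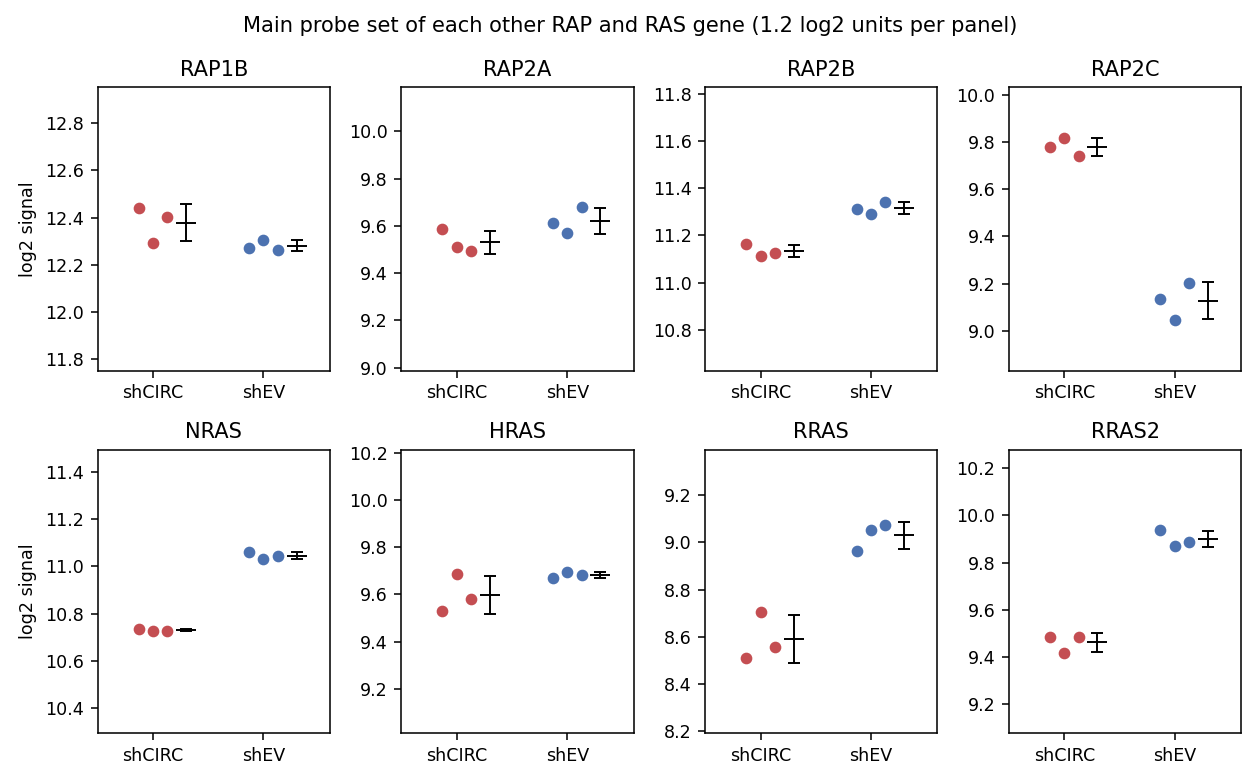
Log2 signal (y axis, the same span of 1.2 log2 units in each panel) of the main probe set of the 8 genes other than RAP1A, shCIRC left and shEV right, with points for arrays and a bar for the mean ± SD (n = 3). The groups are apart for RAP2B, RAP2C, NRAS, RRAS and RRAS2 and overlap for RAP1B, RAP2A and HRAS.

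RAP1B, annotated on chromosome 12 from 69004644 to 69054379, is the close relative of RAP1A that is abundant in platelets, and it did not pass on either of its probe sets. Positions are those of the authors' annotation, whose genome build is not stated. The log2 signals of its main probe set, 11716883_s_at, were 12.44, 12.29 and 12.40 in shCIRC and 12.27, 12.31 and 12.26 in shEV. The groups overlapped, and the log2 difference was 0.10 (95% interval -0.01 to 0.21, adjusted p = 0.12 from limma). It passed when shCIRC replicate 2 was left out, with a log2 difference of 0.14 (adjusted p = 0.020 from limma). The second probe set, 11747247_x_at, is placed not on chromosome 12 but on chromosome 5, from 75465977 to 75470158. Its signals were 11.96, 11.72 and 11.79 in shCIRC and 11.74, 11.63 and 11.66 in shEV, which overlapped, with a log2 difference of 0.15 (adjusted p = 0.11, limma over probe sets).

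A further 2 probe sets name RAP1B together with RAP1BL, so they were left out of the count. Each of them has 2 positions in the annotation. Both probe sets were higher in shCIRC. The signals of 11753055_s_at were 10.75, 10.61 and 10.59 in shCIRC and 10.46, 10.31 and 10.30 in shEV, a log2 difference of 0.29 (adjusted p = 0.0063, limma over probe sets). Those of 11753623_s_at were 10.89, 10.68 and 10.67 in shCIRC and 10.31, 10.18 and 10.18 in shEV, a log2 difference of 0.52 (adjusted p = 9.4e-04, limma over probe sets). Signals of RAP1B and RAP1BL cannot be told apart on these probe sets.

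RAP2C, a RAP2 protein annotated on chromosome X from 131337052 to 131352075, was the only one of the 8 tested genes that rose. On its main probe set the log2 signals were 9.78, 9.82 and 9.74 in shCIRC cells, against 9.13, 9.05 and 9.20 in shEV cells. Every shCIRC array lay above every shEV array, with a log2 difference of 0.65 (standard error 0.05, adjusted p = 5.3e-05, limma), a 1.57-fold higher signal. The second probe set, 11754664_x_at, gave 9.51, 9.49 and 9.56 in shCIRC and 8.86, 8.77 and 8.84 in shEV, a log2 difference of 0.69 (adjusted p = 1.9e-05, limma over probe sets). In the fit over probe sets the 95% intervals of both overlapped, from 0.54 to 0.77 and from 0.60 to 0.79.

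RAP2B, a RAP2 protein annotated on chromosome 3 from 152880014 to 152886977, fell on all 3 of its probe sets. The main one gave 11.16, 11.11 and 11.13 in shCIRC and 11.31, 11.29 and 11.34 in shEV. The groups were apart, and the log2 difference was -0.18 (standard error 0.03, adjusted p = 0.0029, limma). The second, 11733944_at, gave 6.50, 6.42 and 6.60 in shCIRC and 6.73, 6.71 and 6.88 in shEV, a log2 difference of -0.26 (adjusted p = 0.013, limma over probe sets). The third, 11733945_at, gave 5.79, 5.94 and 6.03 in shCIRC and 6.21, 6.19 and 6.17 in shEV, a log2 difference of -0.27 (adjusted p = 0.0093, limma over probe sets). No shCIRC array reached a shEV array on any of the 3.

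RAP2A, which acts on the cytoskeleton through kinases such as TNIK, gave no single direction. Its main probe set had signals of 9.59, 9.51 and 9.50 in shCIRC and 9.61, 9.57 and 9.68 in shEV, and the groups overlapped. The log2 difference was -0.09 (95% interval -0.19 to 0.01, adjusted p = 0.13 from limma). The second probe set, 11719403_a_at, was higher in shCIRC, with 8.09, 7.97 and 8.05 in shCIRC and 7.94, 7.90 and 7.87 in shEV. Its log2 difference was 0.13 (adjusted p = 0.035 from limma over probe sets), and it did not pass without shCIRC replicate 1 or 3 or without shEV replicate 2 or 3 (adjusted p from 0.089 to 0.11 from limma over probe sets). The annotation gives both probe sets the same span on chromosome 13, from 98086460 to 98120600.

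NRAS, a RAS protein of the growth factor pathway, fell on 1 of its 2 probe sets. The main one, 11719189_at, had log2 signals of 10.74, 10.73 and 10.73 in shCIRC cells, against 11.06, 11.03 and 11.04 in shEV cells. The arrays of each group lay close together and the groups were apart, with a log2 difference of -0.32 (standard error 0.03, adjusted p = 1.2e-04, limma), a 1.24-fold lower signal. The second, 11719188_at, gave 9.19, 9.12 and 9.25 in shCIRC and 9.18, 9.13 and 9.24 in shEV. The groups overlapped there, and the log2 difference was 0.00 (95% interval -0.12 to 0.12, adjusted p = 0.98 from limma over probe sets). That interval does not reach the difference of the main probe set, although both have the same annotated span on chromosome 1, from 115247089 to 115259988.

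HRAS, another RAS protein of the same pathway, annotated on chromosome 11 from 532245 to 535538, did not pass. Its main probe set gave 9.53, 9.69 and 9.58 in shCIRC and 9.67, 9.69 and 9.68 in shEV, a log2 difference of -0.08 (95% interval -0.19 to 0.03, adjusted p = 0.19 from limma). The groups overlapped because of shCIRC replicate 2, and without that array the log2 difference was -0.13 (adjusted p = 0.028 from limma). The second probe set gave 8.79, 8.92 and 8.94 in shCIRC and 8.96, 8.96 and 9.01 in shEV, a log2 difference of -0.09 (adjusted p = 0.16, limma over probe sets), and there the groups did not overlap.

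RRAS, or R-Ras, a relative of RAS that promotes integrin adhesion, fell on its single probe set, annotated on chromosome 19 from 50138548 to 50143458. The log2 signals were 8.51, 8.70 and 8.56 in shCIRC cells, against 8.97, 9.05 and 9.07 in shEV cells. All shCIRC arrays lay below all shEV arrays, with a log2 difference of -0.44 (standard error 0.06, adjusted p = 8.3e-04, limma).

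RRAS2, also called TC21, fell on all 3 of its probe sets, but by unequal amounts. The main one, 11757492_s_at, gave 9.48, 9.42 and 9.49 in shCIRC and 9.94, 9.87 and 9.89 in shEV, a log2 difference of -0.44 (standard error 0.04, adjusted p = 8.5e-05, limma). This probe set has a second position on chromosome 1, from 53457444 to 53458612, besides RRAS2 on chromosome 11. The other 2 are placed on chromosome 11 alone. One, 11720721_s_at, gave 9.43, 9.41 and 9.37 in shCIRC and 9.57, 9.52 and 9.58 in shEV, a log2 difference of -0.15 (adjusted p = 0.012, limma over probe sets). The other, 11747262_s_at, gave 8.25, 8.25 and 8.28 in shCIRC and 8.39, 8.37 and 8.45 in shEV, a log2 difference of -0.14 (adjusted p = 0.013, limma over probe sets). Their 95% intervals, from -0.23 to -0.06 for each, do not reach that of the main probe set, from -0.53 to -0.35. The signal was 1.35-fold lower on the main probe set and 1.11-fold lower on each of these.

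**Figure D4:**
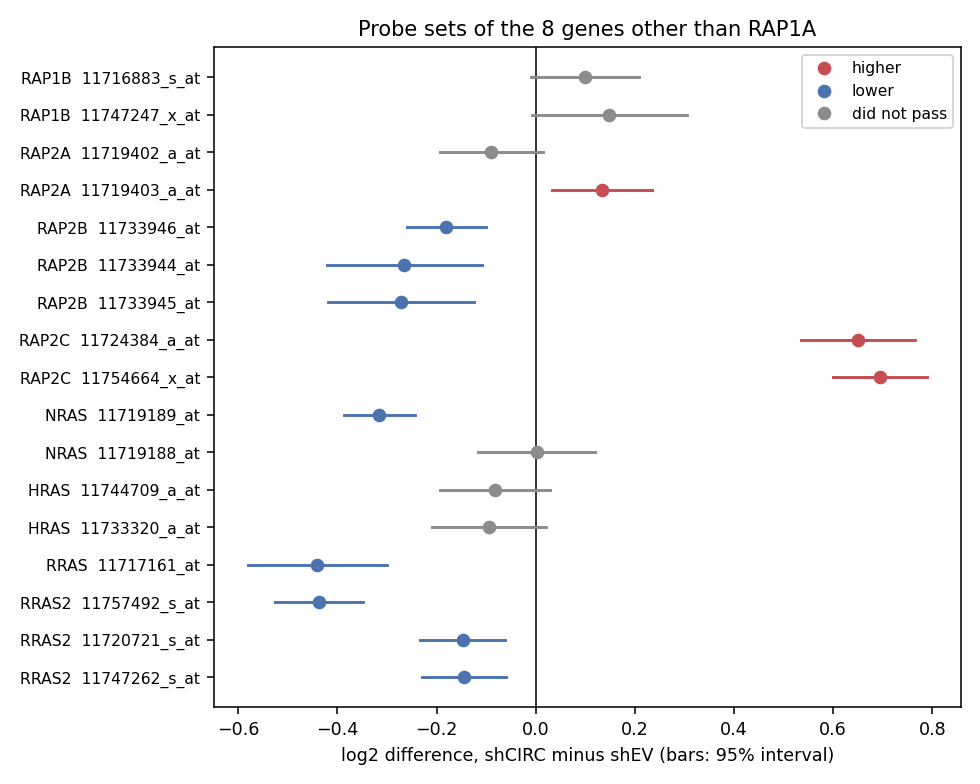
Log2 difference of shCIRC minus shEV (x axis) for the 17 probe sets of the 8 genes other than RAP1A (rows), with 95% intervals from limma, coloured by whether the probe set was higher, lower or did not pass. The 2 RAP2C probe sets stand at 0.65 and 0.69, the 3 RAP2B and 3 RRAS2 probe sets lie below 0, and NRAS and RAP2A have probe sets on different sides of the threshold.

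The 250 bases upstream of the annotated start are shown for RAP2C, which rose, and for NRAS and RAP2B, which fell, as members that changed in opposite directions. They come from RefSeq on GRCh38.p14, in which 8 of the 9 genes had an entry, and are written on the strand of the gene. The RAP2C window is chrX:132219448-132219697 on the minus strand, that of NRAS chr1:114716772-114717021 on the minus strand and that of RAP2B chr3:153161976-153162225 on the plus strand. Capitals mark matches, on either strand, to the GC box GGGCGG and the E-box CACGTG.
RAP2C: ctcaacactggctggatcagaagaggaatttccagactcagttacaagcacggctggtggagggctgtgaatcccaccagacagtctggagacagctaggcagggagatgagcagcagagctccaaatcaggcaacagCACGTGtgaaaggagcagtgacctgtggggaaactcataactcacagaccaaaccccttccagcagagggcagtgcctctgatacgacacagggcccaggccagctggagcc
NRAS: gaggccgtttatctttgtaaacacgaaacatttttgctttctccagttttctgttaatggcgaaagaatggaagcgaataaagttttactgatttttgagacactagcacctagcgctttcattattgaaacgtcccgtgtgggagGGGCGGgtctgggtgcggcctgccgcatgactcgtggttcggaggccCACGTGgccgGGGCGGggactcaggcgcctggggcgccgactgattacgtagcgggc
RAP2B: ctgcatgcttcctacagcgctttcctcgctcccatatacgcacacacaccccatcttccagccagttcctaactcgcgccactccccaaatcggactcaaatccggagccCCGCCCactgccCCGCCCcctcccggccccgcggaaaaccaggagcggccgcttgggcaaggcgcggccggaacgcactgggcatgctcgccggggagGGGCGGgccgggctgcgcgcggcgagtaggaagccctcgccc

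The NRAS window holds 2 GC boxes and 1 E-box, and the RAP2B window holds 3 GC boxes. The RAP2C window holds 1 E-box and no match to GGGCGG. Among members that did not pass, the windows of RAP1B, RAP2A and HRAS hold 6, 8 and 3 GC boxes. RRAS2, which fell, has several windows, which hold 0, 2, 3 and 0 GC boxes. No E-box was found in the windows of these other members. Of all 35116 windows of this length, 42.6% hold GGGCGG and 6.34% hold CACGTG. None of the members' windows matched the AP-1 site TGAGTCA (4.20% of all windows) or the ETS site CCGGAAGT (3.42%). The cAMP response element TGACGTCA (1.65%) matched once, in the window of RAP1B. The CCAAT box (32.0%) matched only in that of HRAS. All were searched on both strands, and overlapping matches were counted. The window of RAP1A held none of the 6 motifs, and its GC content was 46.0%, against a median of 58.0% over all windows. The lowest annotated coordinate lay 620389 bases from that of RefSeq for RAP1A and 542620 bases for NRAS, also on chromosome 1. Whether the windows of RAP1A and the other members, RAP2C included, lie at the starts annotated for their probe sets was not tested. These matches describe letters in the windows and were not set against the signals.

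Genes that regulate RAP and RAS, carry their signals or process them were then counted in 8 lists of 98 genes, of which 89 were measured. Each gene counted once, 15 rose, 28 fell and 46 did not pass. The shares of 16.9% and 31.5% stand beside 22.8% and 24.7% of all genes.

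Of 8 exchange factors of RAP measured, none rose and 2 fell, or 25% beside the 24.7% of all genes, and the median log2 difference of the list was -0.06. RAPGEF2, an exchange factor for RAP1 and RAP2, had log2 signals of 9.51, 9.46 and 9.52 in shCIRC and 10.02, 9.99 and 10.01 in shEV, a log2 difference of -0.51 (adjusted p = 2.7e-05 from limma). All 3 of its probe sets passed as lower. RAPGEF1, which activates RAP1, had a log2 difference of -0.35 (adjusted p = 2.0e-04 from limma), with 2 of 5 probe sets passing as lower.

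Among 7 GTPase-activating proteins of RAP, none rose and 3 (42.9%) fell, beside 22.8% and 24.7% of all genes. The median log2 difference was -0.06. The largest difference was that of SIPA1L1, with 8.84, 8.80 and 8.90 in shCIRC and 9.94, 9.89 and 9.84 in shEV. The signal was 2.06-fold lower in shCIRC, with a log2 difference of -1.04 (standard error 0.04, adjusted p = 5.8e-06, limma) and the same direction on both probe sets. SIPA1 had a log2 difference of -0.45 (adjusted p = 2.6e-04 from limma). RASA3, which acts on both RAP and RAS, had -0.13 (adjusted p = 0.021 from limma), and did not pass without shCIRC replicate 2 or 3 or without shEV replicate 3 (adjusted p from 0.051 to 0.065 from limma).

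Of 12 effectors and adaptors of RAP, 2 (16.7%) rose and 5 (41.7%) fell, beside 22.8% and 24.7% of all genes. The median log2 difference was -0.02. Only 1 rose without shCIRC replicate 1 or 3 or without shEV replicate 1 or 2. TLN1 encodes talin, which links integrins to actin and is recruited downstream of RAP1. Its log2 signals were 7.23, 7.38 and 7.55 in shCIRC and 8.60, 8.77 and 8.49 in shEV, a log2 difference of -1.24 (standard error 0.10, adjusted p = 7.7e-05, limma), and both of its probe sets fell. TNIK, a kinase that binds RAP2, had -0.34, and its relative MINK1 had -0.18. RASSF5, the RAP1 effector also called RAPL, had -0.23 on the main probe set, but only that 1 of its 5 probe sets passed as lower and the highest had 0.20. KRIT1 and MAP4K4, the 2 that rose, had 0.13 and 0.14 and were named after their values were seen.

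On the RAS side, 1 of 6 exchange factors (16.7%) fell and none rose, beside 24.7% lower and 22.8% higher of all genes. The median was -0.05. The exchange factor that fell was RASGRP1, with a log2 difference of -0.42 (adjusted p = 0.0042 from limma). SOS1 and SOS2 did not pass on their main probe sets. For each of these, 1 other probe set passed in the direction of the main one, among 4 of SOS1 from -0.04 to 0.32 and 3 of SOS2 from -0.42 to -0.04. Of 11 GTPase-activating proteins of RAS and their partners, 2 (18.2%) rose and 4 (36.4%) fell, with a median of -0.06. SPRED1, which brings the RAS GTPase-activating protein neurofibromin to the membrane, rose on all 5 of its probe sets. Its main signals were 9.62, 9.65 and 9.65 in shCIRC and 8.96, 8.93 and 8.99 in shEV, a log2 difference of 0.68 (standard error 0.03, adjusted p = 1.0e-05, limma). DAB2IP fell, with 6.88, 6.77 and 6.83 in shCIRC and 7.63, 7.51 and 7.54 in shEV, a log2 difference of -0.73 (adjusted p = 2.9e-05 from limma), although 1 of its 3 probe sets did not pass. RASAL2 and RASA2 had -0.47 and -0.45.

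Of 13 effectors and adaptors of RAS, 3 (23.1%) rose and 5 (38.5%) fell, beside 22.8% and 24.7% of all genes. The median log2 difference was 0.005. Only 3 fell without shEV replicate 1 or 2. RIN1, an effector that acts on endocytosis, had 7.73, 7.91 and 7.74 in shCIRC and 8.67, 8.66 and 8.75 in shEV, a log2 difference of -0.90 (adjusted p = 2.8e-05 from limma) that 6 of 7 probe sets shared. ARAF, a RAF kinase, had -0.46 on its main probe set, and its 5 probe sets ran from -0.74 to 0.42. SHOC2, a scaffold that supports RAF activation, rose with 0.40, and RGL2, an exchange factor for RAL, with 0.27.

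RAS and RAP proteins need a lipid anchor to reach membranes. Of 13 genes for prenylation, processing and trafficking, 3 (23.1%) rose and 4 (30.8%) fell, beside 22.8% and 24.7% of all genes. The median log2 difference was 0.02. Leaving out 1 array at a time, 2 to 3 rose and 3 fell. ABHD17C, a depalmitoylase of the family that acts on NRAS, had 9.73, 9.68 and 9.72 in shCIRC and 10.61, 10.53 and 10.57 in shEV. It fell on all 3 of its probe sets, with a log2 difference of -0.86 (adjusted p = 5.8e-06 from limma) on the main one. ICMT, the methyltransferase of the last processing step, had -0.56 on its main probe set. LYPLA2, a thioesterase, rose with 0.60, and PGGT1B, a subunit of the enzyme that prenylates RAP1, rose with 0.23.

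Of 22 measured relatives within the RAS subfamily, 5 (22.7%) rose and 5 (22.7%) fell, beside 22.8% and 24.7% of all genes. The median was -0.02. RALB, a GTPase activated downstream of RAS, had log2 signals of 10.96, 11.02 and 10.91 in shCIRC and 9.78, 9.78 and 9.76 in shEV, a log2 difference of 1.19 (standard error 0.04, adjusted p = 3.3e-06, limma). Its paralog RALA had 10.27, 10.23 and 10.29 in shCIRC and 10.75, 10.70 and 10.73 in shEV, a log2 difference of -0.46 (adjusted p = 4.3e-05 from limma), but only 1 of its 3 probe sets passed as lower, and it was named after its values were seen. Both RALB probe sets rose. RIT1, a relative of RAS, had a log2 difference of 1.00 (adjusted p = 3.3e-06 from limma) and rose on all 3 of its probe sets. DIRAS3, an imprinted gene that inhibits growth, had 0.81, and NKIRAS1, which restrains NF-kB, had 0.48, each on a single probe set. NKIRAS2, the relative of NKIRAS1 in this list, fell on all 4 of its probe sets. Its main log2 difference was -0.43 (adjusted p = 6.2e-05 from limma), and it was named after its values were seen.

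**Figure D5:**
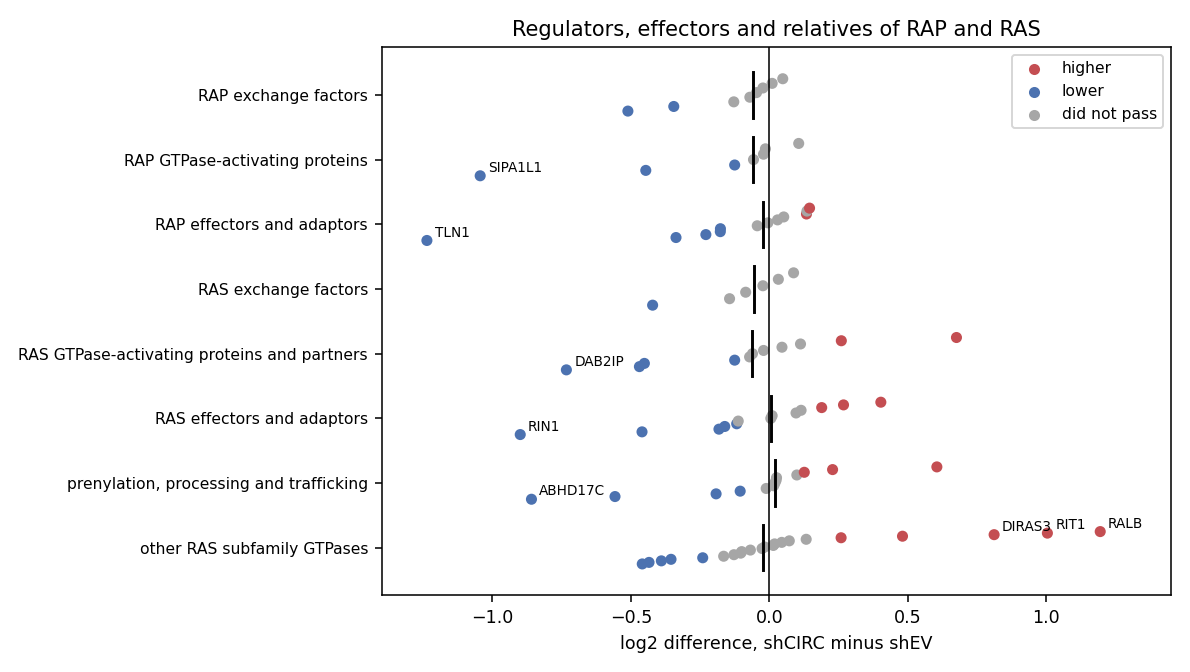
Log2 difference of shCIRC minus shEV (x axis) of the measured genes of the 8 lists (rows), 1 main probe set per gene, coloured by whether the gene was higher, lower or did not pass, with a black bar at the median of each list. Genes beyond 0.7 on either side are named, from TLN1 at -1.24 to RALB at 1.19, while the list medians lie between -0.06 and 0.02.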

How the data were processed

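Gene expression was measured with 6 PrimeView arrays of RKO cells, 3 of shCIRC and 3 of shEV, grouped by their labels. The authors deposited log2 signals after quantile normalization in R, for 49395 probe sets and, with annotation, for 39269 of them, and the 2 tables differed in 0 shared cells. The submitters' processing notes name GCOS 1.4, while neither background correction nor probe summarization is described in any source used. Probe sets in the annotated table exceeded their array's 20th percentile on 4 or more arrays. It also holds the authors' p-value and FDR, log2 fold change, fold as a ratio and signed fold as a score, as deposited, which were not used. Its positions are within 1000 bases of GRCh38.p14 for 1 of the 9 genes, and no source used names their build.

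Control probe sets (73) and those of several genes (1539) or none (199) were left out. Symbols were updated by Entrez number for 37380 probe sets, and 78 kept theirs. The limma package 3.58.1 (lmFit, then eBayes) was run in R 4.3.3 over all 15894 genes with the brightest probe set each and, separately, over all 37458 probe sets, with Benjamini-Hochberg adjustment over all of them and a threshold of 0.05. The fit was tested on simulated data. The members and lists were chosen with earlier results of these data known. Named were all members with every probe set and, from each list, up to 4 passing genes with the largest difference, and the 3 genes nearest to RAP1A in pattern. Alternatives were other scalings, brightness and probe set filters, probe set choices, tests and thresholds, the replicate block, and leaving out each array.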

Additional observations from a re-analysis of the deposited data

How the results depend on the processing

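Over the alternatives, RAP2C, RRAS and RRAS2 kept their direction and their call, with log2 differences from 0.61 to 0.69, from -0.50 to -0.40 and from -0.47 to -0.24. RAP2B and NRAS kept theirs except with a fold above 1.3 added, where they lay below that fold. The main RAP1A probe set gave -5.26 and -5.32 with the arrays centred on their medians and with cyclic loess. The RAP1A difference was 0.21 when only probe sets with a position were used, an alternative chosen after seeing the data. The RAP2A difference was 0.13 with the probe set of the largest SD, and that of RASSF5 was 0.0068 with the mean of its probe sets and 0.20 with the probe set of the largest SD, since these alternatives read other probe sets. Of the 8 genes other than RAP1A, 2 rose instead of 1 with genes above the median brightness (fewer genes tested, RAP1B added, adjusted p = 0.039 from limma). In that alternative RAP2A passed as lower (log2 difference -0.09, adjusted p = 0.047 from limma). Also, 2 rose with the probe set of the largest SD (RAP2A added, adjusted p = 0.044 from limma) and with trend and robust (RAP1B added, adjusted p = 0.011 from limma). RAP2A thus passed in opposite directions in different alternatives. With a fold above 1.3, 2 of the 8 genes fell. Of their 17 probe sets, 5 rose with trend and robust, 5 fell at an adjusted p under 0.01, and 2 fell with a fold above 1.3. With the methods' t-test after Benjamini-Hochberg adjustment, 1 of the 8 genes rose and 4 fell, and 2 of the probe sets rose and 7 fell. With a fold above 1.3, 7 genes of the lists rose and 15 fell. Leaving out 1 array at a time, 1 to 2 of the 8 genes rose and 4 to 5 fell, 2 to 5 of the 17 probe sets rose and 8 to 9 fell, and 13 to 15 list genes rose and 24 to 26 fell. The probe sets that rose were 5 without shCIRC replicate 2. Why the remaining counts moved was not tested. The labels share only a replicate number. Deviations of same-numbered arrays correlated with r of 0.07, 0.10 and 0.09 over probe sets, each higher than with any other number, as a hint from the data. These deviations are taken from group means, so the r values are not independent of each other. With the replicate block, 1 of the 8 genes rose and 4 fell, 16 list genes rose and 29 fell, and RAP1B probe set 11747247_x_at passed (log2 difference 0.15, adjusted p = 0.033 from limma). The files give no signal over background, so which dim probe sets lack signal is unknown.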
